A study of Mus musculus with 12 samples.

Results

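Protocadherin genes were followed in the olfactory tissue of mice that lack an enhancer of odorant receptor (OR) genes. Probe sets were chosen as members when every gene symbol that the platform annotation gave them began with Pcdh, and 37 of the 35556 probe sets on the array met this rule. They comprised 1 probe set of the α cluster, 22 of the β cluster and 14 of non-clustered genes, and together carried 48 of the 21335 gene symbols on the array. No probe set carried a symbol of the γ cluster, so the γ genes were not analysed here. All 48 symbols were found in the RefSeq annotation of GRCm38.p6, which places the 3 clusters side by side on chromosome 18 in the order α, β and γ, with the non-clustered genes Pcdh1 and Pcdh12 on the same chromosome. The deleted enhancer lies on chromosome 7, which holds none of the members.

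Protocadherins are cadherin-like adhesion proteins of the cell surface, and like the OR genes their clustered genes form a large family of which each neuron uses a small chosen part. They lie in the adjoining α, β and γ clusters, each variable exon has its own promoter, and a neuron draws a random combination of them through DNA methylation, the insulator protein CTCF, cohesin and distal enhancers. The proteins bind identical combinations on other membranes, and in olfactory sensory neurons (OSNs) the clustered genes take part in sorting axons into glomeruli. The non-clustered genes encode single adhesion proteins with more regular expression patterns. The comparison addressed whether the levels of this family differed between mice with and without an enhancer of the OR genes.

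Total RNA of the main olfactory epithelium (MOE), the sheet of the nasal cavity that holds the OSNs, was hybridized to 12 arrays, 1 for each of 6 ΔJ and 6 wild-type mice. ΔJ mice were homozygous for a CRISPR-Cas9 deletion of the J element, an enhancer of the class I OR genes, and wild-type mice were their littermates. The line came from 1 founder made in B6C3F1 eggs and backcrossed to C57BL/6NCrSlc, and the labels give the strain of both groups as C57BL/6. The ΔJ group held 3 females and 3 males, 1 of them at postnatal day 33 (P33) and the others at P30, and the wild-type group held 4 females and 2 males, 2 of them at P33.

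Levels are log2 signals relative to the 75th percentile of the same array, so that a level of 0 is the 75th percentile of all probe sets. Probe sets differ in their affinity, and a level is therefore compared between mice and not between genes. On the whole array 48 probe sets passed an adjusted p under 0.05 for genotype (limma), 44 of them named only by OR genes and 4 without a symbol, and 46 of the 48 were lower in ΔJ mice. Their smallest log2 fold change in size was 0.47. The arrays of replicates 1 to 3 and of replicates 4 to 6 formed 2 sets of differing spread, with an SD over all probe sets of 2.07 to 2.13 in the first and 2.20 to 2.23 in the second, and each set held 3 mice of each genotype. The labels do not say what the sets are. All mice at P33, 2 wild-type and 1 ΔJ, were in the second set, and every mouse of the first was at P30. Age and set are therefore in part confounded. Y-linked genes and Xist matched the labelled sex in all 12 mice. The gene Kdm5d, which females lack, had a mean level of -3.72 in the 7 females, and 15.6% of all probe sets but none of the 37 members had a mean at or below it. Pcdh20, with a wild-type mean of -3.15, lay within the range of single females for Kdm5d pooled over both sets (-4.23 to -3.05). Kdm5d was at -3.34 to -3.05 in females of the first set and at -4.23 to -3.86 in those of the second. Pcdh20 was at -2.98 to -2.75 and at -3.63 to -3.29 in these sets, above Kdm5d of every female of the same set.

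No protocadherin probe set passed the test between ΔJ and wild-type MOE. Of the 37 members, 0 passed an adjusted p under 0.05 in limma, where 0.135% of all probe sets passed, and 0 reached an unadjusted p under 0.05, where 3.33% of all probe sets did. None exceeded a 1.3-fold change (2.91% of all), and none separated the genotypes without overlap (0.301% of all). Among probe sets of a single symbol, 2.36% reached an unadjusted p under 0.05 and 0.70% exceeded 1.3-fold. The log2 fold change was below 0 for 21 of the 37 members, against 60.2% of all probe sets, and its median was -0.01 over the members and -0.03 over all. The difference was smaller than its own standard error for 32 of 37 members, against 67.6% of all probe sets. The largest fall among the members left 90.4% of the wild-type level. In bulk tissue, fewer cells that use a gene and less RNA per cell cannot be told apart.

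The width of the intervals shows how large a change these arrays leave room for. The 95% interval of the fold change lay wholly within 1.3-fold in either direction for 28 of 37 members, 16 of them in the β cluster and 11 non-clustered, and for 61.7% of all probe sets. Among the 21789 probe sets of a single symbol the share was 75.9%, close to the 75.7% of the members. At 1.5-fold, a limit chosen after these values were seen, all 37 intervals lay within it, against 85.4% of all probe sets. The lowest bound was that of Pcdh11x, at 70.2% of the wild-type level, and the highest that of Pcdhb18, at 133%. When the array set was added to the model, the interval of all 37 members lay within 1.3-fold, against 75.9% of all probe sets. The share among probe sets of a single symbol was not computed for this model.

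**Figure D1:**
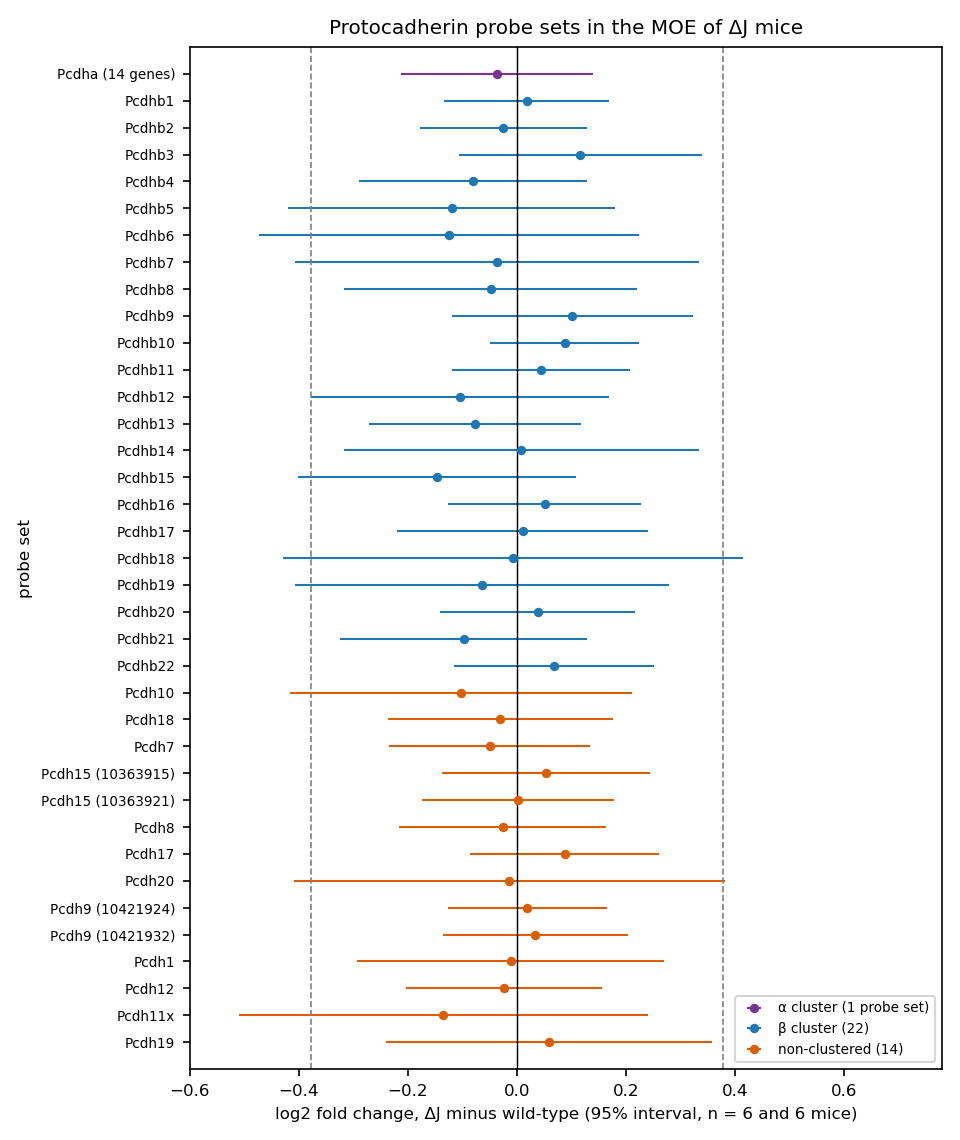
Log2 fold change of ΔJ against wild-type MOE (horizontal axis) for each of the 37 protocadherin probe sets, with bars for the 95% interval of the limma fit over 6 and 6 mice; the dashed lines mark 1.3-fold in either direction. Every interval includes 0, and 28 of them lie between the dashed lines.

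The α cluster was read by 1 probe set that carries 14 symbols, Pcdha1 to Pcdha12 and the C-type genes Pcdhac1 and Pcdhac2. Mature α transcripts join 1 variable exon to constant exons that all of them share. This probe set gives 1 value for all 14 symbols, so it cannot tell which variable exon was chosen. The positions of its probes were not examined. Its level in the 6 wild-type mice was -0.76, -0.82, -0.67, -0.80, -0.87 and -0.89, and in the 6 ΔJ mice -0.75, -0.70, -0.72, -0.84, -1.16 and -0.85. The groups overlapped throughout, apart from ΔJ replicate 5, which lay below all other mice. The log2 fold change was -0.04 (SE 0.08, n = 6 and 6), an interval from 86.3% to 110% of the wild-type level. A switch from one α gene to another may not be seen in this value.

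The 22 genes of the β cluster were each read by a probe set of their own. Each β gene is a single exon behind its own promoter, so that here the level over the whole tissue is read gene by gene. The choice made by single neurons is not seen in these values. In ΔJ mice 12 of them were lower and 10 higher, with a median log2 fold change of -0.02, and 0 reached an unadjusted p under 0.05. The mean level of the 22 had a lowest, median and highest value of -1.91, -1.86 and -1.73 in wild-type mice and of -2.05, -1.82 and -1.70 in ΔJ mice. The ΔJ range enclosed the wild-type range.

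The largest fall of a β gene was that of Pcdhb15, from a wild-type level of -1.13, -1.10, -0.97, -1.30, -1.20 and -1.27 to a ΔJ level of -1.19, -1.03, -1.02, -1.52, -1.70 and -1.38. ΔJ replicates 1 to 3 lay among the wild-type values and ΔJ replicates 4 to 6 lay below all of them. The log2 fold change was -0.15 (SE 0.12; limma, unadjusted p = 0.236, adjusted p = 0.993), and -0.07 without ΔJ replicate 5. Pcdhb6 and Pcdhb5 followed, with log2 fold changes of -0.12 (SE 0.16) and -0.12 (SE 0.14). That of Pcdhb6 was -0.02 without ΔJ replicate 5, and that of Pcdhb5 was -0.03 without ΔJ replicate 6. Of smaller falls, the lowest p-values belonged to Pcdhb12 (-0.10 ± 0.13 SE), Pcdhb21 (-0.10 ± 0.10), Pcdhb4 (-0.08 ± 0.10) and Pcdhb13 (-0.08 ± 0.09), all log2 fold changes smaller than their standard error.

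The largest rise was that of Pcdhb3, whose lowest, median and highest level was -2.38, -2.19 and -1.93 in wild-type mice and -2.35, -1.98 and -1.92 in ΔJ mice. The ranges all but coincided, and the log2 fold change was 0.12 (SE 0.10). Pcdhb9 differed by 0.10 (SE 0.10) on the log2 scale. Pcdhb10 had the smallest p of all members (limma, unadjusted p = 0.189, adjusted p = 0.993) and a log2 fold change of 0.09 (SE 0.06). Its level was -3.04, -2.89, -2.82, -2.82, -2.88 and -2.90 in wild-type mice and -2.89, -2.90, -2.82, -2.71, -2.83 and -2.67 in ΔJ mice. Only ΔJ replicates 4 and 6 lay above every wild-type mouse.

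Pcdhb1, at the α end of the cluster, lacks the conserved promoter element bound by CTCF in the other β genes. Its level was 1.69, 1.57, 1.55, 1.61, 1.59 and 1.45 in wild-type mice and 1.71, 1.72, 1.64, 1.63, 1.43 and 1.44 in ΔJ mice. The groups overlapped, and the log2 fold change was 0.02 (SE 0.07). Its interval, 91.1% to 113% of the wild-type level, was among the narrowest of the cluster.

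**Figure D2:**
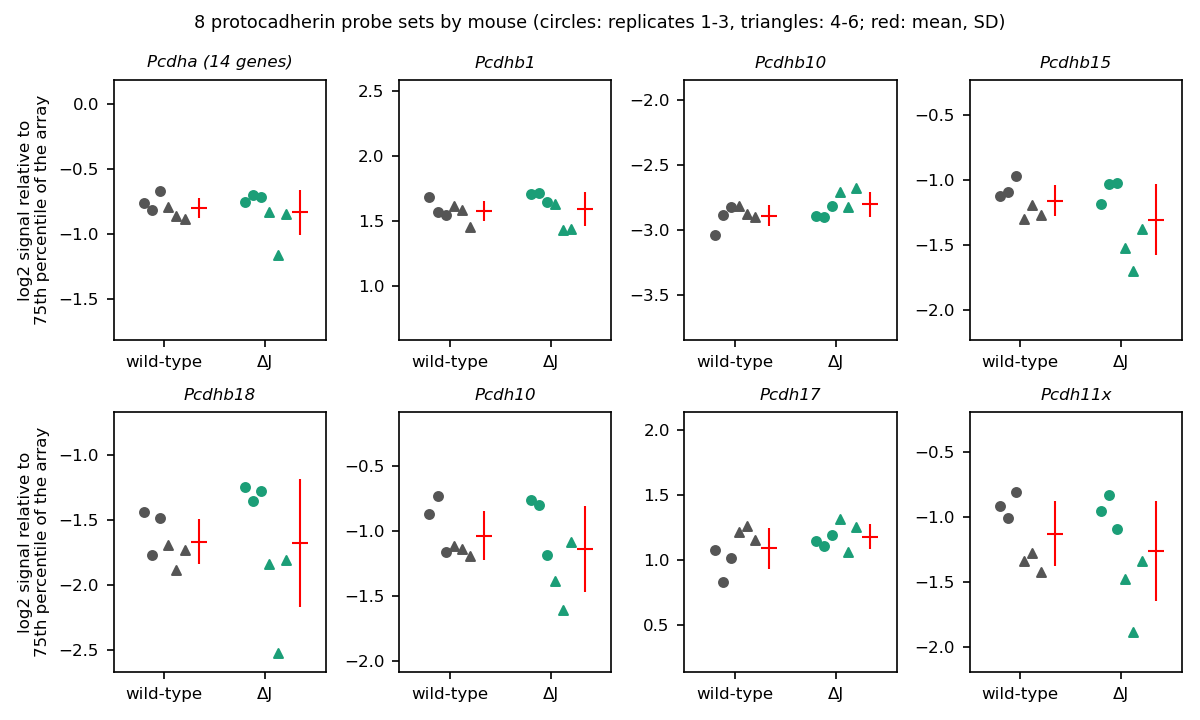
Level of 8 protocadherin probe sets in each mouse, as log2 signal relative to the array's 75th percentile (vertical axes span 2 log2 units), for wild-type and ΔJ mice; circles are replicates 1 to 3, triangles replicates 4 to 6, and red marks the mean with its SD (n = 6). The genotypes overlap in every panel, while circles and triangles part in Pcdhb15 and Pcdh11x.

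Among the 14 non-clustered probe sets, 8 were lower and 6 higher in ΔJ mice, with a median log2 fold change of -0.01. The δ1 protocadherins carry long cytoplasmic tails and were read by 5 probe sets. Pcdh7 had levels from 1.12 to 1.25 in wild-type mice and from 0.80 to 1.32 in ΔJ mice, with a log2 fold change of -0.05 (SE 0.09). The 2 probe sets of Pcdh9 gave log2 fold changes of 0.02 (SE 0.07) and 0.03 (SE 0.08). Pcdh1, an adhesion protein of airway epithelium, gave -0.01 (SE 0.13). The X-linked Pcdh11x had the largest fall of the non-clustered genes. Its level was -0.92, -1.01, -0.81, -1.34, -1.28 and -1.42 in wild-type mice and -0.96, -0.83, -1.09, -1.48, -1.88 and -1.34 in ΔJ mice. Values parted by array set and not by genotype, and the log2 fold change was -0.13 (SE 0.17; limma, adjusted p = 0.993). Without ΔJ replicate 5 it was -0.01.

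The δ2 protocadherins, which regulate the actin skeleton and axon growth, were read by 5 probe sets. Pcdh10, found in subsets of OSNs and their axons, had a level of -0.87, -0.73, -1.16, -1.12, -1.14 and -1.20 in wild-type mice and of -0.76, -0.81, -1.19, -1.38, -1.61 and -1.09 in ΔJ mice. Only ΔJ replicates 4 and 5 lay below every wild-type mouse, and the log2 fold change was -0.10 (SE 0.14), or -0.01 without ΔJ replicate 5. Pcdh17 had a level of 1.08, 0.83, 1.01, 1.22, 1.27 and 1.16 in wild-type mice and of 1.15, 1.11, 1.20, 1.32, 1.06 and 1.26 in ΔJ mice. It was the only non-clustered gene among the 10 members of smallest p (limma, unadjusted p = 0.295), with a log2 fold change of 0.09 (SE 0.08). Pcdh8, which drives the internalization of N-cadherin, gave -0.03 (SE 0.09), Pcdh18 gave -0.03 (SE 0.10) and the X-linked epilepsy gene Pcdh19 gave 0.06 (SE 0.14).

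Of the remaining non-clustered genes, Pcdh12 is an endothelial protein and had a log2 fold change of -0.02 (SE 0.08). Pcdh15, which forms the tip link of inner ear hair cells together with Cdh23, gave 0.05 (SE 0.09) and 0.00 (SE 0.08) in its 2 probe sets. Pcdh20, described in newly differentiated OSNs, had a lowest, median and highest level of -3.57, -3.13 and -2.75 in wild-type mice and of -3.63, -3.12 and -2.86 in ΔJ mice. The log2 fold change of Pcdh20 was -0.01 (SE 0.18). Its level was within the pooled range of single females for Kdm5d but above that of the females within each array set.

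The array set separated the mice in many members, about as often as on the whole array. In a model with genotype and set, 17 of 37 members passed an adjusted p under 0.05 for set in limma, against 42.2% of all probe sets. Of these, 14 were lower in replicates 4 to 6 (31.8% of all probe sets) and 3 were higher (10.4% of all). All 17 moved the same way in wild-type and in ΔJ mice. The 2 sets did not overlap in 13 members, 11 lower and 2 higher, against 23.3% of all probe sets.

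The largest fall between the sets was that of Pcdh20, at -0.60 on the log2 scale, followed by Pcdhb7 at -0.53, Pcdh11x at -0.52, and Pcdhb14 and Pcdhb18 at -0.49 each. The signal of genes that females lack moved as well: Kdm5d, Uty and Eif2s3y were all lower in females of the second set. Kdm5d was at -3.34 to -3.05 in females of the first set and at -4.23 to -3.86 in those of the second. Pcdhb14 lay at -1.97, -1.98 and -2.16 in wild-type replicates 1 to 3 and at -2.64, -2.56 and -2.58 in wild-type replicates 4 to 6, and the ΔJ mice gave -2.02, -2.15 and -2.11 against -2.56, -2.51 and -2.50. The gap between the sets was wider than the spread inside either of them. The 3 members that were higher in the second set were Pcdhb19 (0.53), Pcdh19 (0.38) and Pcdh8 (0.19). The 2 probe sets of Pcdh15 differed here, at 0.04 and -0.22, although they read the same gene. After quantile normalization, 15 members passed for set (35.3% of all probe sets), 9 lower and 6 higher in the second set, so that the lean to lower values depended on the scaling. Of the 15, 11 were among the 17, all with the same sign. The cause of the difference between the sets was not tested.

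**Figure D3:**
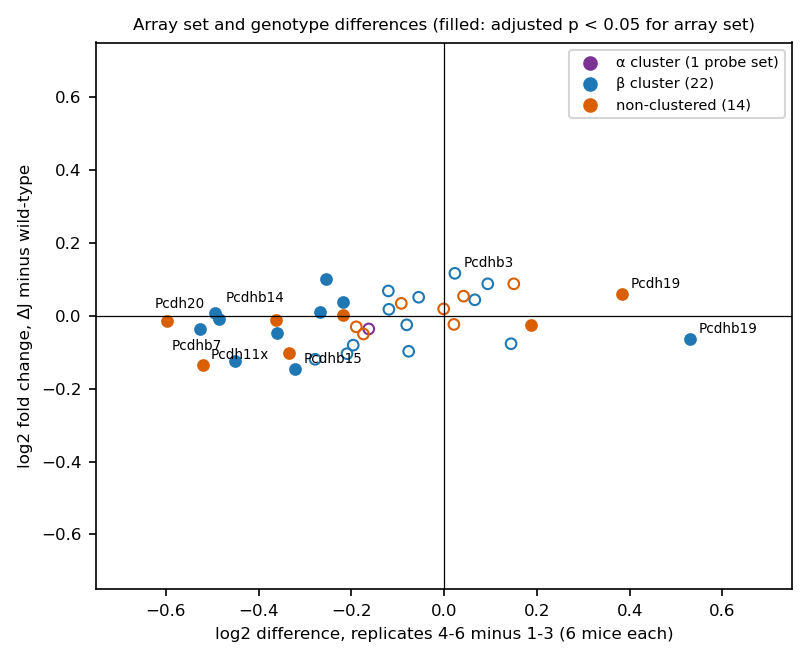
For each of the 37 protocadherin probe sets, the log2 difference between array sets (replicates 4 to 6 minus 1 to 3, horizontal axis) against the log2 fold change between genotypes (vertical axis), on equal scales; filled points passed an adjusted p under 0.05 for array set. Points spread from -0.60 to 0.53 along the array set axis and from -0.15 to 0.12 along the genotype axis.

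The difference between genotypes was then read within each set. In the first set 9 of 37 members were lower in ΔJ mice (59.3% of all probe sets), and in the second 29 of 37 were (57.7% of all). The median log2 fold change of the β genes was 0.05 in the first set and -0.10 in the second. The sign was the same in both sets for 11 of 37 members, a count whose share over all probe sets was not computed. The test of this change, the interaction of genotype and set, passed an adjusted p under 0.05 in 0% of all probe sets and in 0 members, and 3 members had an unadjusted p under 0.05 in limma, against 3.83% of all probe sets. They were Pcdhb6 (log2 fold change 0.07 in the first set and -0.32 in the second), Pcdhb12 (0.11 and -0.32) and Pcdhb18 (0.27 and -0.29).

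Pcdhb18 shows where the second set parts. Its level was -1.44, -1.77, -1.49, -1.69, -1.89 and -1.74 in wild-type mice and -1.25, -1.35, -1.28, -1.84, -2.53 and -1.81 in ΔJ mice. ΔJ replicates 1 to 3 were the highest of all mice, and ΔJ replicate 5 alone lay far below the rest. Over all 6 mice of each genotype the log2 fold change was -0.01 (SE 0.19), and without ΔJ replicate 5 it was 0.16.

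ΔJ replicate 5 was low in many members. It was the lowest of the 12 mice in 20 of 37 members, 12 of the β cluster and 7 non-clustered, against 20.9% of all probe sets. It was the highest in 1, against 16.7% of all probe sets. ΔJ replicate 6 was the lowest in 6 (16.1% of all). Without ΔJ replicate 5, which leaves 2 ΔJ arrays in the second set, the median log2 fold change was 0.04 in the β cluster and that of the α probe set was 0.03. With the array set in the model as well they were 0.01 and 0.02, and the second set alone gave a β median of -0.05. No member passed an adjusted p under 0.05 with or without this mouse. Some of the lists moved with it. The mean level of 13 probe sets of mature OSN markers was 1.86 in this mouse and 2.00 to 2.14 in the others, with 7 of the 13 lowest in it. That of basal and progenitor markers was -0.34 against -0.14 to -0.01, and that of 6 mesenchymal markers was 2.94 against 2.57 to 2.82. Markers of immature OSNs, sustentacular cells, gland and respiratory epithelium, glia, endothelium and immune cells put this mouse inside the range of the others. The list of protocadherin choice and chromatin was also lowest in it (0.36 against 0.50 to 0.67), as were OSN axon identity (0.60 against 0.82 to 0.97) and the other cadherins (-0.77 against -0.74 to -0.60). The part of these cell types in the levels of the family was not tested.

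**Figure D4:**
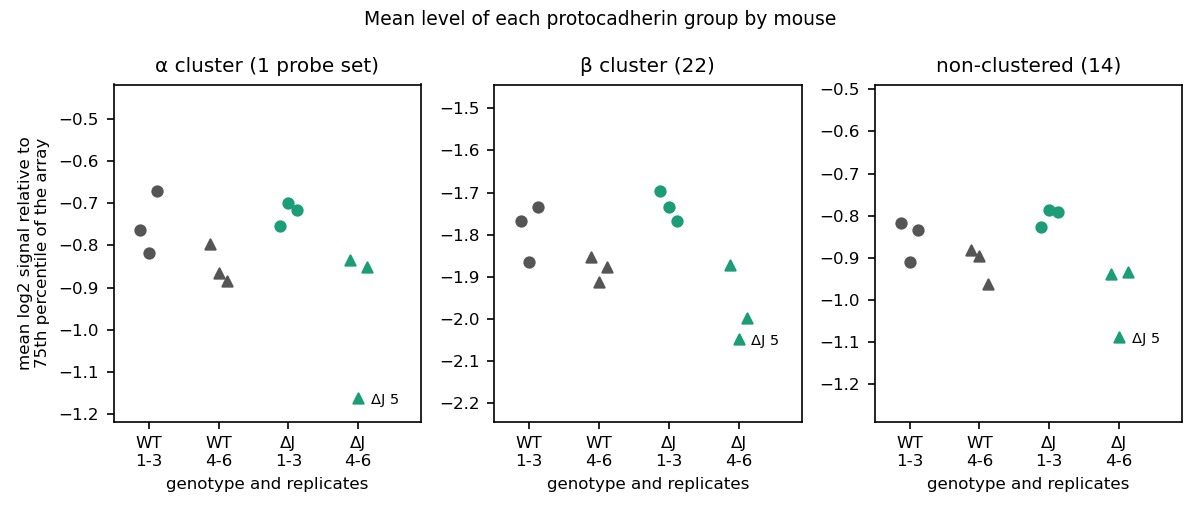
Mean level of the α probe set, the 22 β probe sets and the 14 non-clustered probe sets in each mouse, as log2 signal relative to the array's 75th percentile (vertical axes span 0.8 log2 units), with mice ordered by genotype and array set; each point is 1 mouse. In all 3 groups ΔJ replicate 5 is the lowest point.

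Mice of the same genotype differed in this family about as much as in other genes. The within-genotype SD of the members had a median of 0.166 log2 units and quartiles of 0.134 and 0.254, and that of all probe sets had a median of 0.192 and quartiles of 0.131 and 0.297. Probe sets of a single symbol had a median of 0.160, and 35.9% of them exceeded the median of all probe sets. Of the members, 14 of 37 exceeded it. The steadiest were Pcdhb10 (SD 0.088), the first probe set of Pcdh9 (0.099) and Pcdhb1 (0.106). The most variable were Pcdhb18 (0.369), Pcdh20 (0.344) and Pcdh11x (0.326), whose SD fell to 0.228, 0.118 and 0.168 within genotype and array set. Random choice in single cells is averaged over the cells of a tissue in these values.

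Females and males were compared because 2 members, Pcdh11x and Pcdh19, are X-linked. With genotype and array set in the model, 0 of 37 members passed an adjusted p under 0.05 in limma (0.0141% of all probe sets), and 1 had an unadjusted p under 0.05 (8.13% of all). This was Pcdh11x, with a mean level of -1.31 ± 0.33 (SD, n = 7) in females and -1.04 ± 0.25 (SD, n = 5) in males and a fitted log2 difference of -0.21 (SE 0.08; limma, unadjusted p = 0.019, adjusted p = 0.610). The difference was thus not called. With 1 mouse left out at a time it ran from -0.24 (without ΔJ replicate 4) to -0.15 (without ΔJ replicate 5, a female). Pcdh19 differed by 0.01 (95% interval -0.19 to 0.21) and Pcdh20 by -0.03 (-0.19 to 0.12). The next smallest p-values belonged to Pcdhb6 (-0.18), Pcdhb21 (-0.16), Pcdh8 (-0.11) and Pcdhb15 (-0.11), all on the log2 scale, female minus male.

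The genes around the family were read from lists, none of which held a probe set that passed for genotype. Of 24 genes of protocadherin choice and chromatin, which include CTCF, the cohesin subunits and the DNA methyltransferases, 22 were measured by 26 probe sets. In ΔJ mice 18 of these were higher, with a median log2 fold change of 0.03. The smallest p-values were those of the cohesin subunit Smc1a (0.07, SE 0.05) and of 1 probe set of Smchd1 (0.12, SE 0.09). Smchd1 is a repressor of the clustered genes, and its other probe set gave 0.06 (SE 0.07). Of 20 genes of protocadherin signalling and cleavage, 17 were measured, with a median of -0.01. Ret, a kinase partner of the clustered proteins, had a log2 fold change of -0.19 (SE 0.11), and Ncstn, a subunit of γ-secretase, one of -0.14 (SE 0.09).

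Of 11 partners of Pcdh15 in the hair cell complex, 8 were measured, with a median of -0.08. Tmc2 alone had an unadjusted p under 0.05, with a log2 fold change of -0.21 and an adjusted p of 0.993 in limma. Its mean levels of -3.12 and -3.33 lay within the range of single females for Kdm5d, pooled over both array sets. Of other cadherins, all 22 genes were measured by 36 probe sets, 23 of them lower, with a median of -0.03 and the smallest p for a probe set of Fat3 (0.23, SE 0.11). The other probe sets of Fat3 gave log2 fold changes from -0.13 to 0.08. All 13 genes of OSN axon identity were measured, 10 of them lower, with a median of -0.03. In this list the adhesion protein Kirrel2, whose level follows OSN activity, had a log2 fold change of -0.25 (SE 0.18) and the guidance receptor Nrp2 one of 0.10 (SE 0.07).

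The cell type markers of the tissue gave 0 probe sets called between the genotypes. Their median log2 fold change was -0.05 for mature OSNs, 0.06 for immature OSNs, -0.04 for basal and progenitor cells, 0.01 for sustentacular cells, -0.01 for gland and respiratory epithelium, 0.03 for glia and olfactory bulb, -0.04 for endothelium, 0.03 for mesenchyme and 0.06 for immune cells. Tubb3, a tubulin of immature neurons, was the only one with an unadjusted p under 0.05 (log2 fold change 0.26; limma, adjusted p = 0.993). The mean over the markers of mature OSNs lay above the 75th percentile of the array in every mouse.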

How the data were processed

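MOE RNA of 12 mice was hybridized to Affymetrix GeneChip Mouse Gene 1.0 ST arrays. The values deposited by the authors were log2 signals, 35556 probe sets per array, made with Affymetrix Expression Console according to the submitters' processing notes. Neither its version nor its settings were found in these sources. The 75th percentile of each array was subtracted, as in the study's methods, and all probe sets were fitted with limma 3.58.1 (lmFit, eBayes) in R 4.3.3 on genotype alone, with Benjamini-Hochberg adjustment over all 35556. Array set (with genotype), genotype by array set, and sex (with genotype and array set) were fitted likewise. Fold changes are differences of log2 values. The platform annotation gave 1 symbol to 21789 probe sets, several to 1621 and none to 12146. Members and lists were chosen with earlier results of these data known. Named members were the 10 with the smallest p, the 3 largest rises and falls, the α probe set, all non-clustered genes, the 5 smallest p for sex and the 3 least and 3 most variable. Of other genes, those of smallest p in each list were eligible. Replicate numbers of the labels were taken as pairs in an alternative fit, the replicate block. Same-numbered mice of both genotypes correlated at 0.185 to 0.441 in their deviations. Within array sets the values were -0.144 to 0.078, so these correlations do not show that the mice were paired. On data simulated over 35556 probe sets for this comparison, 28% of 1.3-fold, 72% of 1.5-fold and 78% of 2-fold changes were recovered, with 8 false calls among 35356. No 2 arrays were identical. The number of arrays limits the precision. Other scalings, filters, models and subsets of mice were tried as alternatives.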

Additional observations from a re-analysis of the deposited data

Results flagged for a closer look

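In 74 groups of 6 mice (each member in each genotype), a single mouse lay apart from the other 5 by more than Dixon's 95% critical value in 3, where chance gives about 1 in 20. The α cluster probe set in ΔJ replicate 5 was at -1.16, with the next mouse at -0.85. Pcdhb10 in wild-type replicate 1 was at -3.04, with the next at -2.90. Pcdhb16 in wild-type replicate 2 was at -1.35, with the next at -1.20. All 3 are log2 signals relative to the 75th percentile of the array.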

How the results depend on the processing

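No alternative called a protocadherin probe set for genotype or for sex at an adjusted p under 0.05, the lowest adjusted p of a named member being 0.59. With the replicate block, the members whose interval lay within 1.3-fold numbered 36 against 28, and the block changed no call. At an unadjusted p under 0.05, females alone gave 2 members, against 4.15% of all probe sets. They were a probe set of Pcdh15 at 0.23 and Pcdh10 at -0.41 (log2 fold change). The first array set gave 2 (Pcdhb16 at 0.20 and Pcdhb18, whose sign was reversed, at 0.27; 3.92% of all) and the second gave 3 (Pcdhb6 and Pcdhb12 at -0.32, Pcdhb15 at -0.28; 7.15% of all). In fits added after the data were seen, ΔJ replicate 5 was left out. With the array set in the model this gave 1 (Pcdh17 at 0.13, 8.19% of all), and in the second set alone 1 (Pcdhb12 at -0.41, 7.33% of all). Beyond 1.3-fold were 1 member in females alone (Pcdh10) and 1 in this last fit (Pcdhb12). The share of all probe sets beyond 1.3-fold was not computed in these fits. The β median was 0.055 in the first set and -0.10 in the second, and the non-clustered median 0.053 in the first. The cause was not tested.

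Leaving out each mouse in turn gave 0 members called for genotype or sex, 0 at an unadjusted p under 0.05 and 0 beyond 1.3-fold. The intervals within 1.3-fold numbered 25 to 30, and the medians ran from -0.06 to 0.03 for α, from -0.05 to 0.04 for β and from -0.04 to 0.03 for non-clustered members. The directions of single members were not stable. Over the alternatives 94 of 729 log2 fold changes of the 27 named members changed sign, in 20 members. Subtracting each array's median moved the median of all probe sets from -0.03 to 0.01. It left 12 members lower in place of 21 (44.2% of all probe sets in place of 60.2%), and quantile normalization left 13 (52.1% of all).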
